A study of Mus musculus with 36 samples.

Results

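The 9 genes described here make and use microRNAs (miRNAs) in the epithelium of the mouse small intestine: Drosha and Dgcr8, Xpo5, Dicer1 and Tarbp2, and the Argonautes Ago1, Ago2, Ago3 and Ago4. They were chosen by name as the core of the miRNA pathway and are 9 of the 27998 genes in the single-cell matrices; all 9 passed the filter on low counts. The study profiled small RNA of sorted epithelial populations and, beside it, messenger RNA of single cells, to follow miRNAs across the lineages of this tissue. The single-cell arm holds 2 libraries, labelled set1 and set2 and called library 1 and library 2 here, of separated intestinal cells from wild-type mice aged 12 months, strain C57BL6/2J, prepared with the 10x Genomics Chromium system. No treatment or altered allele is labelled, and the labels do not say how many animals each set holds or whether the sets are separate animals. The overall difference between the sets is a term of the model. P-values therefore set the size of a difference between types against how far such differences disagree between the 2 sets. All types share 1 estimate of that spread. That spread may be technical.

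A primary miRNA transcript is cut in the nucleus by the microprocessor, in which Drosha is the nuclease and Dgcr8 the partner that binds the RNA. Xpo5 (exportin 5) carries the resulting hairpin to the cytoplasm with Ran bound to GTP, where Dicer1 cuts it, helped by Tarbp2, and the mature strand is loaded into an Argonaute that then represses matching messenger RNAs. Of the mammalian Argonautes, Ago2 is the one with strong slicing activity. In intestinal epithelium this pathway is known to be needed for normal renewal and differentiation of the lining.

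The authors' annotation names 8 cell types: intestinal stem cells (ISC), progenitors, secretory progenitors, absorptive enterocytes, mucus-secreting goblet cells, antimicrobial Paneth cells, hormone-secreting enteroendocrine cells (EEC) and chemosensory tuft cells. It covers 1144 cells of library 1 and 1470 of library 2, 2614 in all, and the libraries shared 0 barcodes. Types held 23 to 488 cells per library, fewest in tuft cells (24 and 23) and EEC (35 and 45). Unique molecular identifiers (UMIs, 1 per captured RNA molecule) were summed per library and type into 16 sums of 425289 to 15332200 UMIs. The marker lists did not separate every type: the 7 secretory progenitor markers summed to 362 and 399 UMIs per 1000000 UMIs of the sum (CPM, before any further scaling) in secretory progenitors, under the 465 and 452 of goblet cells and the 790 and 596 of EEC. The 7 stem markers were highest in ISC, at 505 and 1103 CPM before further scaling, but after the TMM scaling described next Paneth cells (396 and 718) came near ISC (452 and 879). The 10 Paneth markers summed in Paneth cells to 447529 and 398833 CPM before further scaling. Those markers matter for scale: genes that each took over 1% of a sum's UMIs held 85.3% and 71.2% of Paneth UMIs, against 7.05% to 24.6% in the other types. Levels are therefore given as CPM after TMM scaling (trimmed mean of M values, which sets most genes level between sums), and total-count values stand beside the tests where they change a call or a direction.

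Across the 8 types, 4 of the 9 genes differed: Dgcr8 (adjusted p = 8.52e-06), Ago2 (0.0004), Xpo5 (0.000819) and Ago1 (0.00642), by edgeR's quasi-likelihood F test with Benjamini-Hochberg adjustment over the 11647 genes tested. The test called 76.4% of all genes, so 4 of 9 lies under the background share. Drosha (0.278), Dicer1 (0.322), Tarbp2 (0.0906), Ago3 (0.379) and Ago4 (0.0556) did not pass by the same edgeR test. With total-count scaling 8 of the 9 passed, all but Ago4, beside 96.6% of all genes; there the median gene moved by -2.14 in Paneth cells.

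**Figure D1:**
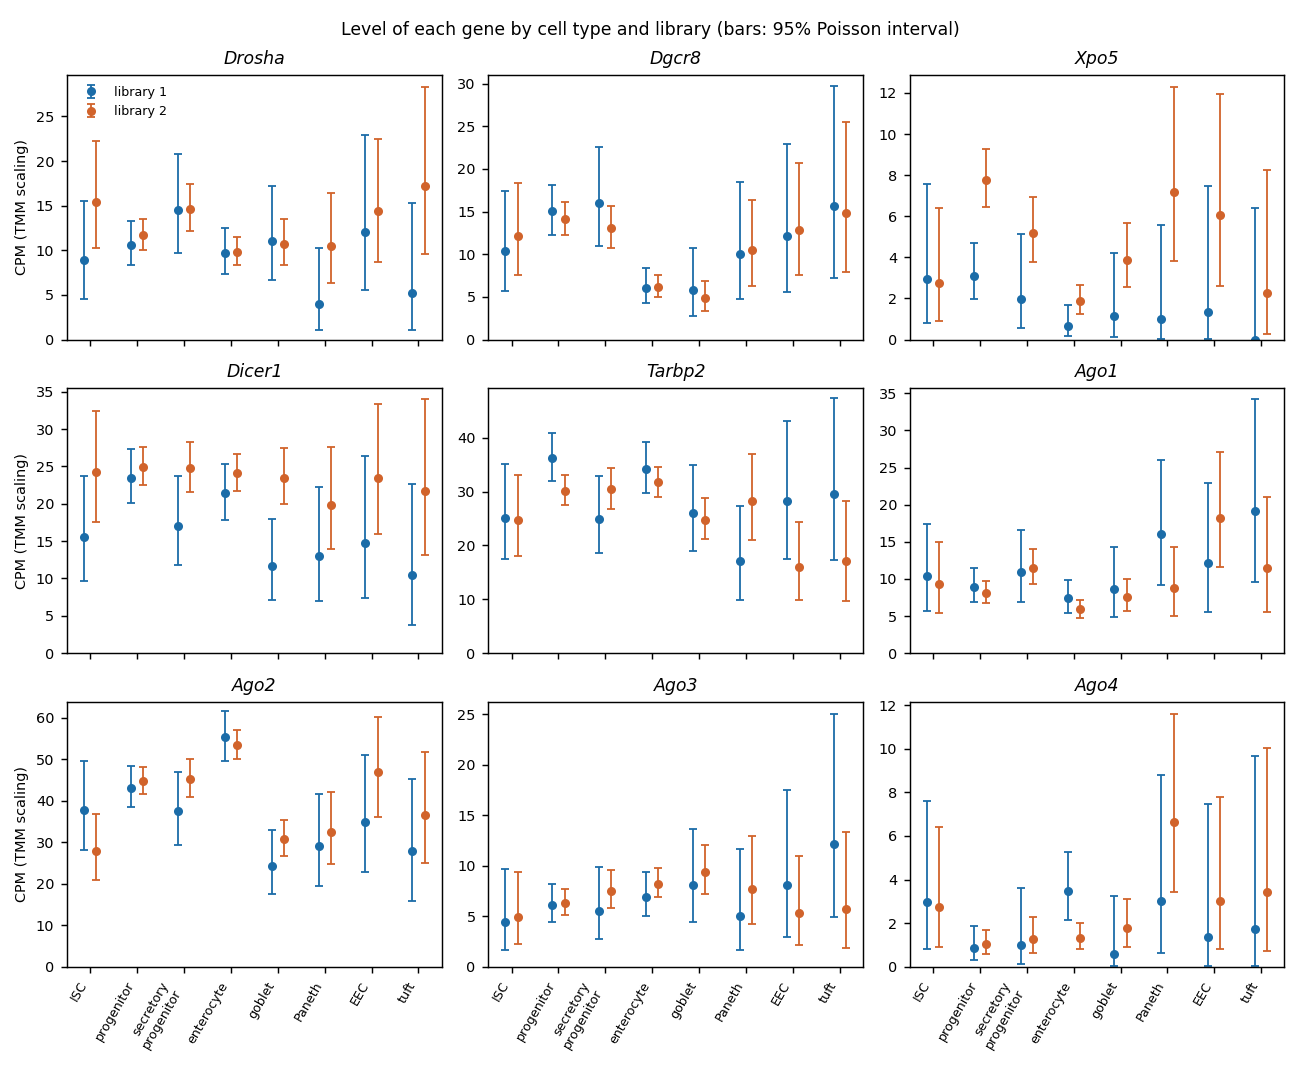
UMIs per 1000000 (CPM) after TMM scaling (vertical axis, from 0) for each of the 9 genes in the 8 annotated cell types; points are the 2 libraries and bars the 95% Poisson interval of each sum. Dgcr8 sat at 4.92 to 6.20 in enterocytes and goblet cells and at 10.0 or more in every other sum, while Ago2 peaked in enterocytes at 55.4 and 53.5.

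Each type was also set against the mean of the other 7. Enterocytes carried 5 calls among the 9 genes, near the 61.1% of all genes called there: Ago2 and Tarbp2 were higher, and Dgcr8, Xpo5 and Ago1 lower. Progenitors carried 4 calls against a background of 34.2%, with Dgcr8, Xpo5 and Tarbp2 higher and Ago4 lower. Goblet cells carried 2 calls, Dgcr8 and Ago2, both lower, against 32.3% of all genes. Paneth cells carried 1 call, Ago4 higher, against 25.1%. No member was called in ISC (24.8% of all genes called), secretory progenitors (14.7%), EEC (22.8%) or tuft cells (9.74%) by edgeR's test; at an unadjusted p under 0.05 the counts there were 0, 1, 1 and 0, and with total-count scaling 0, 2, 2 and 2 (Drosha and Dgcr8, Ago1 and Ago2, and Dgcr8 and Ago1, all higher). The median log2 difference of the 9 genes ran from -0.11 in goblet cells to 0.26 in progenitors, and that of all genes from -0.07 to 0.12.

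**Figure D2:**
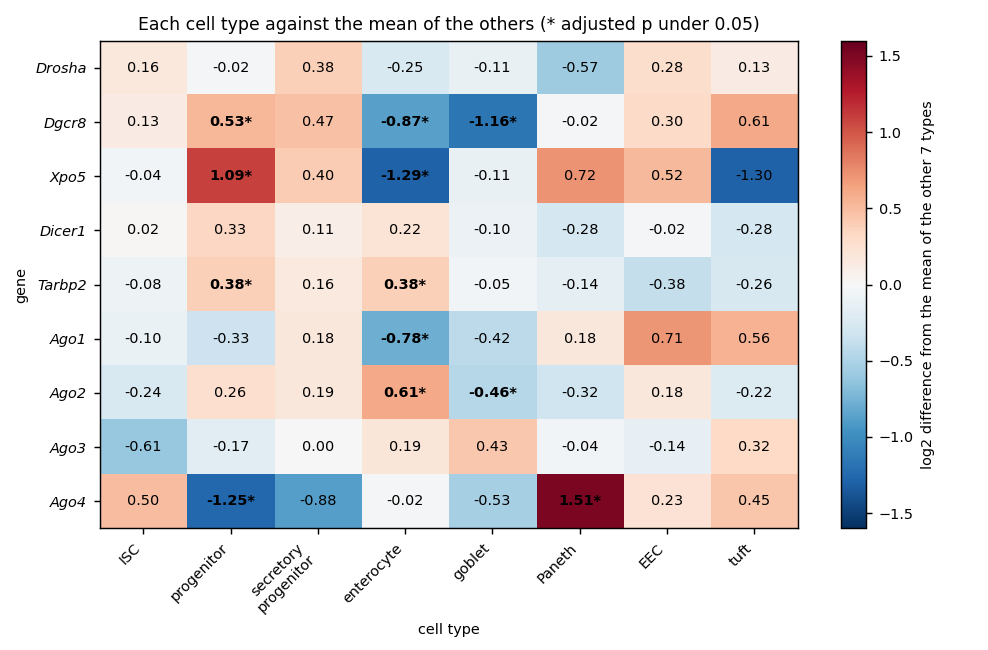
Log2 difference of each gene (rows) in each cell type (columns) from the mean of the other 7 types, TMM scaling; red is higher, blue lower, and an asterisk marks an adjusted p under 0.05. Calls fall in 4 of the 8 types, from 1.51 for Ago4 in Paneth cells to -1.29 for Xpo5 in enterocytes.

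The subunits of the microprocessor differed in their pattern. Dgcr8 stood at 15.0 and 14.1 CPM in progenitors of library 1 and library 2, 16.0 and 13 in secretory progenitors, 15.6 and 14.9 in tuft cells, and 12.1 and 12.9 in EEC. It stood at 10.4 and 12.1 in ISC, 10.0 and 10.5 in Paneth cells, 6.08 and 6.20 in enterocytes, and 5.80 and 4.92 in goblet cells. On this TMM scale the values of the last 2 types lay below all other sums in both libraries, but Poisson intervals overlapped. In library 1 goblet cells held 2.78 to 10.7 (10 UMIs) and enterocytes 4.28 to 8.38 (37 UMIs). Paneth cells held 4.81 to 18.4 and ISC 5.67 to 17.4 there, on 10 and 14 UMIs. EEC held 5.53 to 23.0 and tuft cells 7.16 to 29.7, on 9 UMIs each. In library 2 Paneth cells (6.32 to 16.4) and EEC (7.51 to 20.6) still overlapped enterocytes (5.04 to 7.54). Progenitors and secretory progenitors lay clear of both types in both libraries. The neighbours tuft cells, progenitors and secretory progenitors did not differ beyond their spread. Dgcr8 was 0.87 lower on the log2 scale in enterocytes than in the mean of the others (log2 difference -0.87, SE 0.16, edgeR adjusted p = 8.06e-05, lower in 2 of 2 libraries). In goblet cells the log2 difference was -1.16 (SE 0.22, edgeR adjusted p = 0.000196, lower in 2 of 2 libraries), and in progenitors 0.53 (SE 0.14, edgeR adjusted p = 0.00511, higher in 2 of 2 libraries). These directions held with total-count scaling, where progenitors differed by 0.86, enterocytes by -0.89 and goblet cells by -1.23, and where secretory progenitors (0.86, edgeR adjusted p = 0.0123) and tuft cells (1.18, 0.0366) were called higher too. The progenitor call was lost with DESeq2 (log2 difference 0.42, DESeq2 adjusted p = 0.0904).

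Drosha, the nuclease, ranged less in the means of the 2 libraries, from 7.26 to 14.6 CPM over the types against 5.36 to 15.3 for Dgcr8. Single sums of Drosha ranged more, from 4.01 to 17.2 against 4.92 to 16.0. It stood at 14.5 and 14.6 in secretory progenitors, 10.6 and 11.7 in progenitors, 9.70 and 9.85 in enterocytes, and 11.0 and 10.7 in goblet cells. Paneth cells (4.01 and 10.5), tuft cells (5.22 and 17.2) and ISC (8.89 and 15.4) held wide gaps between libraries, on 3 to 28 UMIs a sum, and EEC stood at 12.1 and 14.4. The largest log2 difference was -0.57 (SE 0.32) in Paneth cells, and no type passed edgeR's test on the TMM scale. With total counts secretory progenitors passed (0.76, edgeR adjusted p = 0.03). When genes over 1% of UMIs were left out of the scaling, Drosha differed among types (edgeR adjusted p = 0.0226) and was lower in enterocytes (-0.54, 0.0149, against -0.25 with TMM). The contrast with Dgcr8 thus depends on the scale. A ratio of both genes needs no scaling: Dgcr8 made up 58.6% and 54.7% of the UMIs of Dgcr8 and Drosha together in progenitors, 38.5% and 38.6% in enterocytes, and 34.5% and 31.4% in goblet cells. The 95% Clopper-Pearson intervals, which cover counting error only, were 51.0% to 65.8% and 49.7% to 59.7% in progenitors, 28.8% to 49% and 32.6% to 44.8% in enterocytes, and 17.9% to 54.3% and 22.7% to 41.2% in goblet cells. Progenitors and enterocytes thus did not overlap in either library, and the goblet interval of library 1, on 29 UMIs (19 of Drosha and 10 of Dgcr8), was wide. With every type other than progenitors the enterocyte intervals overlapped in both libraries. Those of secretory progenitors, for example, were 39.3% to 65.4% and 40.6% to 53.6%.

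Markers of cycling cells, like Dgcr8, were high in progenitors and secretory progenitors and low in enterocytes and goblet cells. The 9 cycling genes, none of them at 0 in any type, summed to 1319 and 1408 CPM in progenitors and 1149 and 1292 in secretory progenitors. Sums were 576 and 932 in tuft cells, 750 and 540 in ISC, 716 and 458 in EEC, and 504 and 641 in Paneth cells, and only 208 and 107 in goblet cells and 70.2 and 57.0 in enterocytes. Tuft cells had lower cycling sums than progenitors, with Dgcr8 at 15.6 and 14.9 CPM on 9 and 13 UMIs, against 15.0 and 14.1. Goblet cells had higher sums than enterocytes, with Dgcr8 at 5.80 and 4.92 CPM on 10 and 33 UMIs, against 6.08 and 6.20. The part of the cycling genes in the differences of Dgcr8 was not tested. Over the 16 sums, centred within each library, the genes whose log2 level was most like that of Dgcr8 were Ncapd2 (Pearson r = 0.952), a condensin subunit, Rgs12 (0.942), a regulator of G protein signalling, and Cdca8 (0.939), part of the chromosomal passenger complex. These sums share libraries and depth, and the values describe likeness only.

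The promoters of Dgcr8 and Xpo5 are shown because these genes had the widest differences between progenitors and enterocytes. RefSeq promoters (GRCm38.p6) matched 8 of the 9 genes, with 9 start sites, and the 250 bases before each start were searched on both strands for 4 motifs. They were the CCAAT box, the ETS core CCGGAAG, CGCATGCG (an NRF1 core, spelled alike on both strands) and, for E2F, TTTCCCGC, TTTGGCGC, TTTGCCGC and TTTCGCGC. Capitals mark every match, and no matches overlapped in the 2 sequences, which lie at chr16:18289169-18289418 on the minus strand and chr17:46202561-46202810 on the plus strand.
Dgcr8: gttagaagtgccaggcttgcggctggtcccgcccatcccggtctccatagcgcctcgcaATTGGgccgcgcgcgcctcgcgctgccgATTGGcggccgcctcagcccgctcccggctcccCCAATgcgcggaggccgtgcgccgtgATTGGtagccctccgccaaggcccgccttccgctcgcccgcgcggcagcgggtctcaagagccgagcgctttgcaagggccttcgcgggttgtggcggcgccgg
Xpo5: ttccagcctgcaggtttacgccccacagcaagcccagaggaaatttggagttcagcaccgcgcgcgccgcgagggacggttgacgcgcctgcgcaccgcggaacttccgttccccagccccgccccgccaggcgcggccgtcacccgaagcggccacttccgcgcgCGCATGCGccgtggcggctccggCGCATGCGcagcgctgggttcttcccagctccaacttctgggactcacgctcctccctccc
Dgcr8 held 4 CCAAT words, 191, 163, 130 and 104 bases before the start. Of 32851 promoters, 33.8% held at least 1 and 0.84% at least 4. Other members held CCAAT words too: 3 in Drosha, 3 in Tarbp2, 1 in Dicer1 and 1 before each of the 2 starts of Ago1. Xpo5 held 2 NRF1 words, 84 and 61 bases before the start, where 1.55% of promoters held at least 1 and 0.113% at least 2. The E2F words were in none of the 9 member promoters and in 1.86% of all, and the ETS word was in those of Drosha and Ago3 and in 6.91% of all. A match describes the letters only.

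The Dgcr8 transcript also carries a miRNA. The hairpin of miR-1306 lies within the coding part of exon 2 of 14 of Dgcr8 (RefSeq, GRCm38.p6, chr16:18284239-18284317, minus strand), and Drosha with Dgcr8 is known to cut hairpins in this transcript. It is printed because it ties a member gene to the small RNA arm; capitals mark the mature arms in the hairpin and the seed, bases 2 to 8, in each arm.
mir-1306 hairpin: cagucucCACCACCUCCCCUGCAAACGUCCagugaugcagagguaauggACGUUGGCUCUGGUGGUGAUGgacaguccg
miR-1306-5p: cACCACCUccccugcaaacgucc
miR-1306-3p: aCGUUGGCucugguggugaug
The seeds of the arms differ, so they form no shared seed group. Each arm was listed above 0 in 19 of the 31 small RNA libraries with values, summing all entries of that arm in the deposited signal. These entries include ones shifted from the printed arms, and the 5p arm had no unshifted entry. The unshifted 3p entry was 0 in all Lgr5 High and Paneth libraries and 3.73 to 6.72 in CD24Low. In Sox9 High and Sox9 Low it was 0 in some libraries and above 0 in others. The sums are therefore not levels of the printed sequences and seeds alone. The 5p arm summed to 44.8 and 72.9 in the 2 Lgr5 High libraries, 2.98 to 29.3 (median 6.23) in 4 CD24Low, 7.54 to 19.4 (median 13.4) in 4 Sox9 High and 9.43 to 25.3 (median 11.5) in 6 Paneth libraries. It ran from 0 to 37.9 (median 13) in 4 Sox9 Low libraries and was listed at 0 in all 3 tuft libraries. The lowest value listed for any miRNA was 21.0 in the Sox9 Low library at 0 and 42.5 to 82.6 in the tuft libraries. The 3p arm summed to 46.7 and 0 in Lgr5 High, 19.0 to 35.4 (median 25.2) in Sox9 Low, 13.8 to 29.1 (median 19.5) in CD24Low, 5.12 to 16.0 (median 9.48) in Sox9 High and 0 to 47.2 (median 16.8) in Paneth libraries. It summed to 145 in 1 tuft library and to 0 in the others, where the lowest value listed for any miRNA was 59.5 and 82.6. Both arms were listed at 0 in all 4 goblet and all 4 Sox9 Negative libraries, but the lowest value listed for any miRNA there was 31.0 to 63.5 and 10.0 to 23.3, and levels under those would not have been listed. No comparison with Dgcr8 messenger RNA was made, since the sorted populations and the annotated types are different samples.

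Xpo5, the export receptor, had the widest gap between progenitors and enterocytes. It stood at 3.11 and 7.76 CPM in progenitors, 2.00 and 5.18 in secretory progenitors, 2.96 and 2.75 in ISC, and 0.658 and 1.86 in enterocytes. Goblet cells held 1.16 and 3.88, Paneth cells 1.00 and 7.18, EEC 1.34 and 6.07, and tuft cells 0 and 2.29; the library 1 tuft sum of 0 UMIs allows up to 5.22 CPM at a floor of 3 counts. Library 2 lay above library 1 in every type but ISC, and held 3.28 times the Xpo5 of library 1 over all annotated cells, where the other 8 genes were at 1.08 to 1.59 times. Only 288 UMIs were counted in all, 143 of them in progenitors. Enterocytes differed from progenitors by -2.08 on the log2 scale (SE 0.34, edgeR adjusted p = 1.57e-05), by -2.16 in library 1 and -2.05 in library 2. Against the mean of the others, progenitors differed by 1.09 (SE 0.26, edgeR adjusted p = 0.00248, higher in 2 of 2 libraries) and enterocytes by -1.29 (SE 0.37, edgeR adjusted p = 0.00399, lower in 2 of 2 libraries). The sizes rest on which library is used, 1.86 and 1.05 for progenitors and -0.61 and -1.30 for enterocytes in library 1 and library 2 alone, and library 1 has 4 UMIs in enterocytes. The library 1 mean of the others also holds the tuft sum of 0 UMIs, fitted at a difference of -5.02. That sum lowers the mean against which progenitors and enterocytes are set there. Without the library term in the model the 3 calls were lost (edgeR adjusted p = 0.056 between enterocytes and progenitors, 0.277 for progenitors and 0.141 for enterocytes). The cycling markers, as given for Dgcr8, were also higher in progenitors than in enterocytes, and their part was not tested. The genes most like Xpo5 were the linker histone Hist1h1d (r = 0.893), the tRNA methyltransferase Trmt5 (0.877) and Gm21781 (0.869) over the same 16 sums.

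Dicer1, which cuts the exported hairpin, passed the test in no type on the TMM scale. It stood at 23.5 and 24.9 CPM in progenitors, 21.4 and 24.1 in enterocytes, 17.0 and 24.8 in secretory progenitors, 15.6 and 24.2 in ISC, and 14.8 and 23.5 in EEC. Goblet cells held 11.6 and 23.4, Paneth cells 13 and 19.9, and tuft cells 10.4 and 21.8. Library 2 was above library 1 in all 8 types. The types ranged from 10.4 to 23.5 in library 1 and from 19.9 to 24.9 in library 2. The largest difference from the mean of the others was 0.33 in progenitors (SE 0.14, edgeR adjusted p = 0.0687), 0.70 in library 1 and 0.12 in library 2. With total counts it was 0.70 over both libraries and passed (edgeR adjusted p = 0.00873).

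Tarbp2, the double-stranded RNA binding partner of Dicer1, was highest in progenitors (36.2 and 30.1) and enterocytes (34.2 and 31.7). It stood at 25.0 and 30.4 in secretory progenitors, 26.1 and 24.8 in goblet cells, 25.2 and 24.7 in ISC, 17.0 and 28.2 in Paneth cells, 29.6 and 17.2 in tuft cells, and 28.2 and 15.9 in EEC. Progenitors overlapped secretory progenitors, and the libraries disagreed on the order of EEC, tuft and Paneth cells. The log2 difference from the mean of the others was 0.38 in progenitors (SE 0.14, edgeR adjusted p = 0.0362) and 0.38 in enterocytes (SE 0.14, edgeR adjusted p = 0.0217), higher in 2 of 2 libraries for each. The enterocyte value fell to 0.08 (edgeR adjusted p = 0.628) when genes over 1% of UMIs were left out of the scaling, and to 0.28 (0.0557) when only types with at least 50 cells were kept. The progenitor value was 0.34 (edgeR adjusted p = 0.0642) and 0.20 (0.234) under these settings. Total counts gave 0.36 in enterocytes (edgeR adjusted p = 0.185), which is no call, and 0.71 in progenitors (0.00676). With DESeq2 both calls were lost (DESeq2 adjusted p = 0.0796 in enterocytes and 0.274 in progenitors).

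Among the Argonautes, Ago2, the slicer, was higher in enterocytes than in the mean of the other types. On the TMM scale it stood at 55.4 and 53.5 CPM there, 43.2 and 44.8 in progenitors, 37.5 and 45.4 in secretory progenitors, and 34.9 and 47.0 in EEC. ISC held 37.8 and 28.0, tuft cells 27.8 and 36.6, Paneth cells 29.1 and 32.6, and goblet cells 24.4 and 30.9. On that scale both enterocyte sums lay above every other sum, and goblet cells overlapped the tuft, ISC and Paneth sums next to them. Against progenitors alone enterocytes differed by 0.30 (edgeR adjusted p = 0.0728), which is no call, and with total-count scaling by 0.02 (0.971). Enterocytes differed from the mean of the others by 0.61 (SE 0.11, edgeR adjusted p = 5.93e-05, higher in 2 of 2 libraries) and goblet cells by -0.46 (SE 0.14, edgeR adjusted p = 0.0148, lower in 2 of 2 libraries). With total-count scaling these were 0.62 (edgeR adjusted p = 0.0131) and -0.56 (0.128), so the goblet call was lost, while progenitors (0.60, 0.0234) and EEC (0.82, 0.0152) were called higher. In total-count CPM enterocytes, at 52.8 and 56.4, did not stand above all: in library 2 EEC held 76.4, secretory progenitors 59.9 and progenitors 57.6. Tuft cells of library 2, at 55.0, lay above the enterocyte sum of library 1 only. Without genes over 1% of UMIs in the scaling the enterocyte difference was 0.32 (edgeR adjusted p = 0.0166) and that of EEC 0.53 (0.0322). A list of 10 leukocyte markers, none at 0 there, also summed highest in enterocytes, 2650 and 1717 CPM against 390 to 1674 in the other sums, and its part was not tested. Genes most like Ago2 were Abcb6 (r = 0.912), Ddi2 (0.903) and Xpo7 (0.878).

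Ago1 went the other way in enterocytes. It stood at 7.40 and 5.89 there, 8.71 and 7.61 in goblet cells, 8.92 and 8.15 in progenitors, 10.4 and 9.34 in ISC, and 11.0 and 11.5 in secretory progenitors. Paneth cells held 16.0 and 8.84, EEC 12.1 and 18.2, and tuft cells 19.1 and 11.4. The enterocyte sum was the lowest of its library in both, and goblet cells and progenitors followed without differing beyond their spread. The log2 difference of enterocytes from the mean of the others was -0.78 (SE 0.18, edgeR adjusted p = 0.000748, lower in 2 of 2 libraries), and -0.77 with total-count scaling. In EEC the difference was 0.71 (SE 0.29, edgeR adjusted p = 0.0784), 0.13 in library 1 and 1.05 in library 2. It passed with total counts, at 1.36 (edgeR adjusted p = 0.00214), and without genes over 1% of UMIs in the scaling, at 1.06 (0.00972). Total counts also called tuft cells higher, at 1.15 (edgeR adjusted p = 0.0488).

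Ago3 passed in no type. It ranged from 4.44 and 4.95 in ISC to 8.12 and 9.40 in goblet cells and 12.2 and 5.72 in tuft cells, with progenitors at 6.09 and 6.29 and enterocytes at 6.90 and 8.24. The goblet difference was 0.43 (SE 0.23, edgeR adjusted p = 0.159). Ago4 was sparse, with 123 UMIs in all. It stood at 3.01 and 6.63 in Paneth cells, on 3 and 12 UMIs, at 0.849 and 1.03 in progenitors, on 6 and 16 UMIs, and at 3.45 and 1.30 in enterocytes, on 21 UMIs in each library. The remaining sums held 0.580 to 3.43. Progenitors were lower than the mean of the others by -1.25 on the log2 scale (SE 0.45, edgeR adjusted p = 0.0326, lower in 2 of 2 libraries), and with total-count scaling by -0.95 (0.112). The Paneth difference of 1.51 (SE 0.55, edgeR adjusted p = 0.0488, higher in 2 of 2 libraries) turned to -0.55 (0.332) with total-count scaling, so its direction depends on the scale. This call was also lost without genes over 1% of UMIs in the scaling (1.41, edgeR adjusted p = 0.0604). With DESeq2 the calls of Ago4 in Paneth cells and in progenitors were lost (DESeq2 adjusted p = 0.0531 and 0.0572). Over the 16 sums the genes most like the remaining members were, by Pearson r, Zfp846 (0.897), Ftx (0.859) and Setd5 (0.841) for Drosha, and BC018473 (0.858), Pvrl3 (0.83) and Pcsk5 (0.825) for Dicer1. For Tarbp2 they were Bcl3 (0.85), Enoph1 (0.85) and Gm26890 (0.834), and for Ago1 Ssbp3 (0.897) and Tspyl2 (0.881). For Ago3 they were Gm43848 (0.895), March2 (0.851) and Rnf5 (0.85), and for Ago4 Nr1d2 (0.826), Rras (0.757) and Arl2 (0.734). Several of these are as sparse as the members, with 99 UMIs in all for Gm43848 and 155 for Zfp846.

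The make-up of the Argonaute pool needs no scaling. Ago2 took 75.7% and 77.6% of the UMIs of the 4 genes in enterocytes, 73.1% and 74.4% in progenitors, 68.2% and 69.1% in secretory progenitors, and 68.0% and 62.2% in ISC. It took 58.3% and 62.2% in goblet cells, 54.7% and 58.4% in Paneth cells, 61.9% and 63.9% in EEC, and 45.7% and 64.0% in tuft cells. The 95% Clopper-Pearson intervals of enterocytes, 71.5% to 79.6% and 75.1% to 80.0%, lay above those of goblet cells, 46.1% to 69.8% and 56.7% to 67.4%, and overlapped those of progenitors, 68.6% to 77.3% and 71.4% to 77.1%. Ago1 took 10.1% and 8.54% in enterocytes and 13.5% to 31.4% elsewhere. Ago3 took 19.4% and 18.9% in goblet cells and 7.22% to 20% elsewhere. Gene length and capture differ between the genes, so a share is read across types and not as a ratio of molecules between genes.

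**Figure D3:**
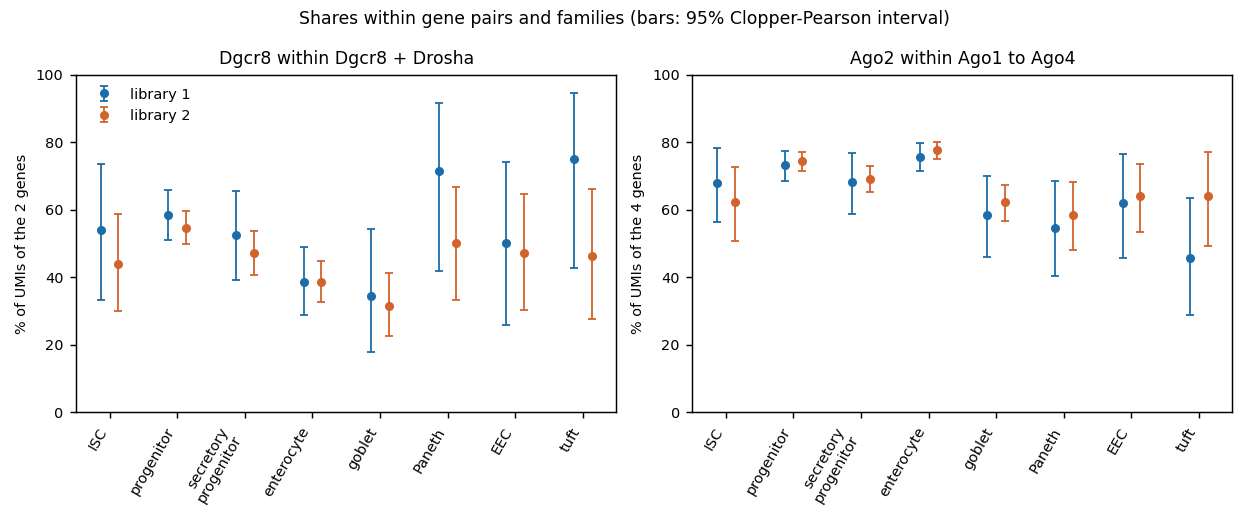
Dgcr8 as a percentage of Dgcr8 and Drosha UMIs (left) and Ago2 as a percentage of the UMIs of the 4 Argonautes (right), by cell type; points are the 2 libraries and bars the 95% Clopper-Pearson interval. Dgcr8 is at 38.5% and 38.6% in enterocytes against 58.6% and 54.7% in progenitors, and Ago2 is highest in enterocytes.

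Paneth cells show how far the scale decides a direction. Their TMM factors were 0.170 and 0.408, against 0.937 to 1.62 in the other sums. On the TMM scale the 9 genes had a median difference of -0.04 in Paneth cells and 0 were called lower. With total counts the median was -2.14, equal to that of all genes, and 8 of the 9 were called lower beside 87.3% of all genes. In cells, Dgcr8 gave 11.9 and 25.7 UMIs per 100 Paneth cells, 9.52 and 13.2 per 100 goblet cells and 9.11 and 20.5 per 100 enterocytes, so that for Dgcr8 Paneth cells were not the lowest. They were the lowest type in both libraries for Drosha (4.76 and 25.7 UMIs per 100 cells) and Dicer1 (15.5 and 48.6), and in library 1 for Tarbp2 (20.2), Ago2 (34.5) and Ago3 (5.95). Total counts raised the median of the 9 genes in every other type except goblet cells, from 0.26 to 0.60 in progenitors and from 0.23 to 0.88 in EEC, where the median of all genes went from 0.12 to 0.45 and from -0.05 to 0.60.

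**Figure D4:**
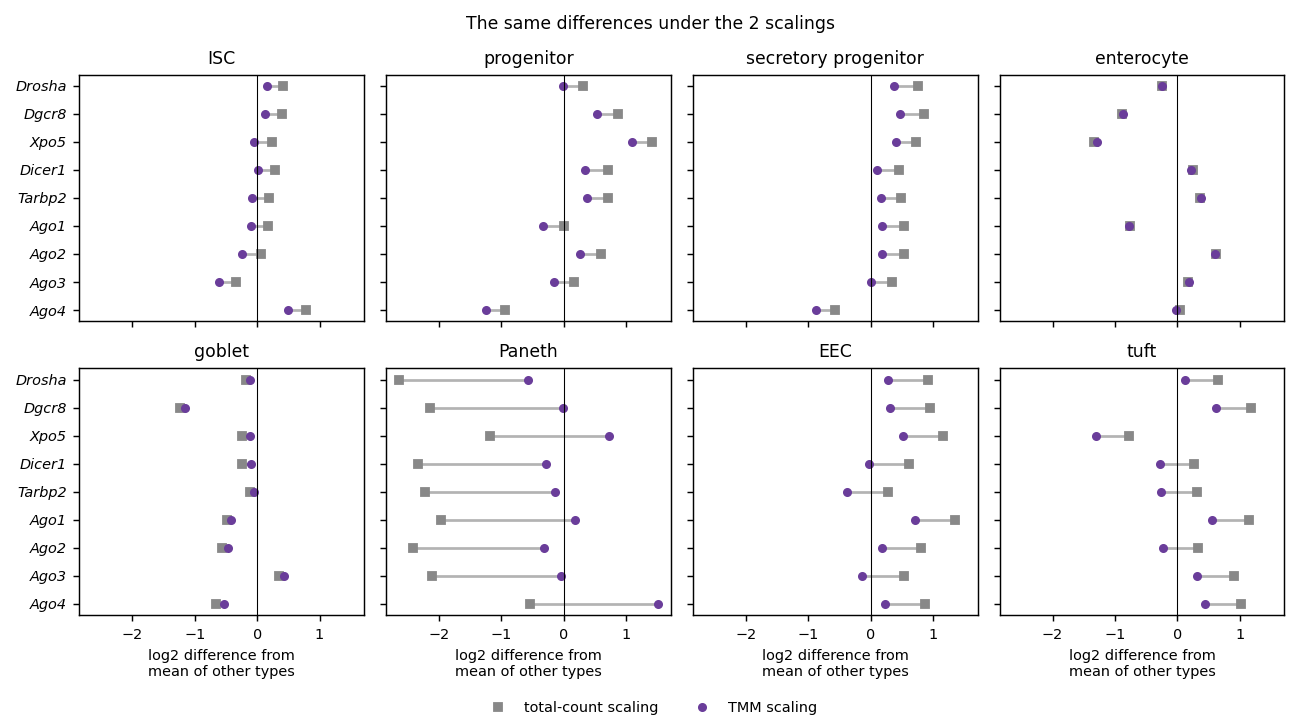
Log2 difference of each of the 9 genes (vertical axis) from the mean of the other 7 types, one panel per cell type; purple points use TMM scaling, grey squares total counts, and lines join the 2 values of a gene. In Paneth cells every gene shifts lower with total counts, the median from -0.04 to -2.14, while in enterocytes the pairs nearly coincide.

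Of 6 chosen pairs of types, enterocytes against progenitors had 2 members called, Dgcr8 and Xpo5, against 56.8% of all genes, and the median of the 9 was -0.10 beside -0.04 for all genes. Dgcr8 differed there by -1.23 (SE 0.18, edgeR adjusted p = 4.52e-06, lower in 2 of 2 libraries). Enterocytes against ISC also had 2 (51.2% of all genes): Dgcr8 at -0.87 (SE 0.27, edgeR adjusted p = 0.0107) and Ago2 at 0.75 (SE 0.18, edgeR adjusted p = 0.00163), each in 1 direction in 2 of 2 libraries; for Ago2 total counts gave 0.49 (0.238). These pairs share the enterocyte sums. Paneth against goblet cells had 1 (24.9%), Dgcr8 at 0.99 (SE 0.33, edgeR adjusted p = 0.0314, higher in 2 of 2 libraries), which total counts turned to -0.79 (0.11) while calling 6 of the other members lower. By edgeR's test no member was called in ISC against progenitors (6.61% of all genes), secretory progenitors against progenitors (12.8%) or EEC against secretory progenitors (18.5%); 1, 0 and 0 had an unadjusted p under 0.05, and total counts called 0 in each. Ago2 between ISC and progenitors was at -0.44 (edgeR adjusted p = 0.174).

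The partners of these genes were followed as lists. Their counts stand beside the share of all genes called by the same test, 76.4% among types, 61.1% in enterocytes and 34.2% in progenitors, and the median of all genes, -0.01 in enterocytes and 0.12 in progenitors. Of 14 microprocessor partners, 11 differed among types, near the background. In enterocytes 10 were lower and 0 higher (median -0.58), a count near the background too, while in progenitors 11 were higher and 0 lower (median 0.48). In ISC 7 and in secretory progenitors 4 were higher and 0 lower, against 24.8% and 14.7% of all genes. The partners named are those with the smallest p: Erh, which assists cutting of weak hairpins, the RNA-binding protein Hnrnpa1, Srrt, which links the cap to the microprocessor, and the splicing factor Srsf3. Erh stood at 576 and 605 CPM in ISC, 481 and 565 in progenitors and 176 and 247 in enterocytes. Srrt stood at 63.3 and 61.9 in progenitors against 22.2 and 30.0 in enterocytes. Hnrnpa1 and Srsf3 differed in enterocytes by -0.84 and -0.66 (edgeR adjusted p = 1.81e-05 and 9.96e-05).

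Of the 5 genes of the Ran cycle that powers export, 5 were higher in progenitors (median 1.01, 34.2% of all genes called). In enterocytes 4 were lower, 0 higher and 1 not called (median -1.16, 61.1% of all genes called). In ISC 3 and in secretory progenitors 3 were higher and 0 lower, against 24.8% and 14.7% of all genes. In goblet cells 4 were lower and 0 higher, against 32.3%. Rangap1, which makes Ran hydrolyse GTP, stood at 82.5 and 82.5 in progenitors and 13 and 15.8 in enterocytes, and Ran at 683 and 681 against 180 and 197. Ranbp1 differed by -1.26 and Rcc1, the exchange factor that loads Ran with GTP, by -0.71 in enterocytes (edgeR adjusted p = 6.9e-07 and 0.00109). Ran and its partners also serve the transport of other cargo and mitosis. The cycling marker sums, like this list and the microprocessor partners, were higher in progenitors than in enterocytes, and their part was not tested.

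Of 5 partners of Dicer1, 2 were higher and 1 lower in enterocytes, near the 61.1% of all genes called there. Prkra, another partner of Dicer1 related to Tarbp2, stood at 38.5 and 50.3 there and 16.0 to 36.4 in the other sums (log2 difference 0.92, edgeR adjusted p = 9.52e-08, higher in 2 of 2 libraries). The RNA editing enzyme Adar differed by 0.54 in enterocytes and 0.71 in goblet cells (edgeR adjusted p = 0.00238 and 0.00186), the translin gene Tsn by -0.45 in enterocytes (0.000924), and the nuclease Snd1 by -0.90 in tuft cells (0.00426).

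Of 10 chaperones and importins that load or carry Argonautes, 7 were lower and 1 higher in enterocytes (median -0.40), against 61.1% of all genes called. In progenitors 7 were higher and 0 lower (median 0.54), against 34.2%. These 2 types did not stand alone. In ISC 8 were higher and 0 lower, against 24.8% of all genes. In Paneth cells 8 were lower and 0 higher, against 25.1%, and in goblet cells 7 were lower and 0 higher, against 32.3%. With total counts 3 were lower and 0 higher in enterocytes. The cycling marker sums were also high in progenitors and low in enterocytes. The libraries disagreed on the order of these sums in ISC (750 and 540 CPM) and Paneth cells (504 and 641), where the list went in opposite directions. The part of cycling was not tested. Hsp90aa1, the inducible form of HSP90, stood at 205 and 236 in enterocytes and 533 and 603 in progenitors. Its co-chaperones Stip1, Fkbp4 and Ptges3 differed in enterocytes by -0.73, -0.34 and -0.47 (edgeR adjusted p = 5.53e-06, 0.00798 and 0.00162). On the TMM scale Ago2 was higher in enterocytes while these 4 genes were lower.

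Of 21 tested silencing effectors, which act after Argonaute binding, 10 differed among types, against 76.4% of all genes. In enterocytes 3 were higher and 7 lower (median -0.17), against 61.1% of all genes. The deadenylase Cnot6l stood at 112 and 183 in EEC and 15.9 to 49.9 in all other sums (log2 difference 2.15, edgeR adjusted p = 1.37e-12). The RNA helicase Mov10 stood at 24.7 and 20.5 in enterocytes and 3.96 and 3.01 in progenitors, and differed by 1.38 in enterocytes (edgeR adjusted p = 4.57e-07). Pabpc1, the poly(A) binding protein, and the deadenylase Cnot6 were lower there by -0.62 and -0.60 (edgeR adjusted p = 0.000459 and 0.00012).

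Of 10 tested genes that tail, trim or degrade miRNAs (13 were listed), 7 differed among types, near the 76.4% of all genes. The terminal uridylyl transferases Zcchc6 and Zcchc11 were both higher in goblet cells, by 0.80 and 0.81 (edgeR adjusted p = 3.61e-05 and 0.00223), and went apart in enterocytes, at 0.63 and -0.82 (7.87e-05 and 0.00126). The exonuclease Xrn2 and Pnpt1, a mitochondrial exoribonuclease, were higher in progenitors by 0.50 and 0.87 and lower in goblet cells by -0.54 and -0.71 (edgeR adjusted p from 7.06e-05 to 0.0113). With total-count scaling the directions called in enterocytes and progenitors were the same for the first 2 lists, with 8 and 4 lower in enterocytes and 11 and 5 higher in progenitors. In enterocytes the other lists changed more: with total counts 2 partners of Dicer1 were higher and 0 lower, 2 silencing effectors higher and 2 lower, and 2 of the decay genes higher and 1 lower.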

How the data were processed

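UMI counts per gene and cell barcode were deposited by the authors as 10x Genomics matrices, per the labels; how barcodes were filtered, and whether counting used strand, is not stated in the sources used here. Build mm9 comes from the submitters' processing notes. Cell type names are the authors' deposited annotation; no doublet caller was run, and how doublets were treated is not given. The small RNA signal was deposited by the authors as read counts divided by a factor per library; 3 of its columns matched no sample and were not used.

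Counts of annotated cells were summed per library and type. edgeR 4.0.16 (R 4.3.3) fitted type plus library with TMM factors to genes with at least 10 UMIs in at least 2 of the 16 sums. Quasi-likelihood F tests were adjusted by the Benjamini-Hochberg method per contrast over 11647 genes, with calls at 0.05. The SE is the log2 difference divided by the square root of F. Cell types of 1 library share its cells' source, so the library is a block in the model. Values from 1 library alone have no test. Likeness used log2 levels with a prior count of 2. The model was tested on simulated data. Alternatives were total-count scaling, scaling without genes over 1% of UMIs, DESeq2 1.42.0, no filter, no block, types with at least 50 cells, and each library left out. Poisson and Clopper-Pearson intervals are at 95% and cover counting error only.

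The members and the lists were chosen with earlier results of these data known. All 9 members are named everywhere; of each partner list the counts are given, with up to 4 called genes of smallest p among all types, and of each member the 3 genes most like it. For Ago1, 1 of these is not reported here. In the GENCODE annotation the 3′ ends of Dgcr8 and Trmt2a, and of Ago2 and Chrac1, overlap on opposite strands, so without strand their reads cannot be told apart there.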

Additional observations from a re-analysis of the deposited data

Results flagged for a closer look

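Members were also counted in barcodes that carry no cell type, which enter no comparison: 65 in library 1 and 6241 in library 2, with a median of 11041 and 1738 UMIs. In library 2 these barcodes held 1109 UMIs of Ago2, 514 of Dicer1, 471 of Tarbp2, 244 of Dgcr8, 222 of Ago3, 206 of Drosha, 192 of Ago1, 66 of Xpo5 and 39 of Ago4. In library 1 they held 36 UMIs of Ago2, 20 of Tarbp2, 13 of Dicer1, 9 of Drosha, 6 of Dgcr8, 5 of Ago1 and 5 of Ago3, and 3 each, no more than a floor of 3 counts, of Xpo5 and Ago4. Ptprc, a leukocyte gene, held 4927 UMIs in them in library 2 and 39 in library 1.

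One of the 6 Paneth small RNA libraries lay far above the others for the summed miR-1306-5p signal, at 25.3 against a median of 11.5. Chance sets about 1 in 20 such groups apart. The lowest value listed for any miRNA was 9.39 in that library and 7.03 to 9.39 over the 6, so these signals lie near the floor.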

How the results depend on the processing

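The 12 calls against the mean of the other types and the 5 calls between pairs were recomputed under 6 other settings with a test. Total-count scaling gave 8 members differing among types, 24 calls against the mean of the others and 9 between pairs; it turned Ago4 in Paneth cells to -0.55 and Dgcr8 in Paneth against goblet cells to -0.79. DESeq2 gave 7 calls against the mean of the others. The fit with no replicate block, that is without the library term, gave 2 members among types, 5 calls against the mean of the others, 3 between pairs and 5643 of all genes against 8904 with the block. The other 3 settings kept every count of members within 1.5 times and lost 1 to 3 single calls each. The enterocyte differences of Dgcr8, Ago1 and Ago2, the goblet difference of Dgcr8, and Dgcr8 between enterocytes and progenitors and between enterocytes and ISC passed under all 6. With either library left out all 17 kept their direction. Without the block the calls of Xpo5, Tarbp2 and Ago4, of Ago2 in goblet cells and of Dgcr8 in Paneth against goblet cells were lost. The causes were not tested. Depth limits Ago4 and Xpo5 most, with 123 and 288 UMIs in all, and 2 libraries limit every test.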
